A study of Mus musculus with 18 samples.

Results

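Of the 27179 genes listed in the expression table of cultured mouse bone marrow mesenchymal stem cells (MSCs), 58 were expressed in young MSCs and at the floor of detection in old MSCs. They were chosen by their values: each of the 6 old libraries held at most 3.3 normalized counts of the gene, and the mean of the 6 young libraries was at least 100. A normalized count is the number of reads on a gene divided by a size factor of the library. At the depth of these libraries the limit of 3.3 allowed 3 whole reads in every old library. The young and old values of the 58 genes are therefore a description and were not tested, and the rejuvenated old libraries, which the rule did not use, hold the new information. The 58 genes were 0.530% of the 10938 genes with a young mean of at least 100.

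MSCs are stromal cells of the marrow that attach and divide on plastic. The donors were labelled C57BL6, with no substrain in the sources used here, and were aged 6 weeks for young and 18 to 24 months for old MSCs. Libraries were made from 6 cultures of each of 3 groups on day 7 (100000 cells in each well). In the rejuvenated old group, old MSCs had grown in the same wells as young MSCs, across a membrane with pores of 0.4 µm, which soluble factors pass and cells do not, and the young and old groups had no treatment. Old MSCs cultured beside other old MSCs were not analysed here, so the age of the neighbouring cells and their mere presence cannot be told apart. The sources used here do not say how many mice stood behind each group, so p-values measure the spread between cultures.

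Fibroblasts and marrow stroma keep in culture part of the HOX and patterning code laid down in the embryo, which records the position the cells came from. HOX genes lie in clusters, and neighbours in a cluster are commonly switched together. Stromal subtypes also differ in the factors they secrete, the surface glycoproteins they display and the lipid mediators they make. Of the 58 genes, 46 were protein-coding, 7 were long non-coding RNAs, 2 were pseudogenes, 1 was a transcribed pseudogene and 1 was another RNA, and gene 100505224 was not found in the annotation. A name beyond a predicted or clone number was given for 45 of them.

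Start-site windows of 300 bases (250 before to 50 after the start, RefSeq GRCm38.p6) are shown for 4 of the genes, chosen for the results that follow. Angptl7 was chosen as the gene with the highest young level, and Hoxb8 as the highest in young MSCs of the HOX genes among the 58. Pard6b was chosen as a neighbour of Ptgis, and S100g as the gene with the largest share of its young level in rejuvenated old MSCs. They lie at chr4:148500413-148500712 (minus strand), chr11:96281655-96281954 (plus strand), chr2:168080754-168081053 (plus strand) and chrX:162964550-162964849 (minus strand). Capitals mark CG dinucleotides, the site of DNA methylation in mammals.
Angptl7: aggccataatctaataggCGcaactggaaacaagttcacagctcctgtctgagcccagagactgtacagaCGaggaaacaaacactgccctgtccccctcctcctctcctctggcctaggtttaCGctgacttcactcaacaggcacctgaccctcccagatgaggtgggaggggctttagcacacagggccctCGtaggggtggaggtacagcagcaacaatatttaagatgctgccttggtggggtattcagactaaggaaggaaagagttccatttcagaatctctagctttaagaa
Hoxb8: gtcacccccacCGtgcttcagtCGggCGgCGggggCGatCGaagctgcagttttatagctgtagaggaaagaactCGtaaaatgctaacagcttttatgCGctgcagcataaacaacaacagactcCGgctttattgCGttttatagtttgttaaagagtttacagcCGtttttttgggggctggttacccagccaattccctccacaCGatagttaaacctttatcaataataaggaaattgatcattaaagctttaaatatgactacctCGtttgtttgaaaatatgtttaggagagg
Pard6b: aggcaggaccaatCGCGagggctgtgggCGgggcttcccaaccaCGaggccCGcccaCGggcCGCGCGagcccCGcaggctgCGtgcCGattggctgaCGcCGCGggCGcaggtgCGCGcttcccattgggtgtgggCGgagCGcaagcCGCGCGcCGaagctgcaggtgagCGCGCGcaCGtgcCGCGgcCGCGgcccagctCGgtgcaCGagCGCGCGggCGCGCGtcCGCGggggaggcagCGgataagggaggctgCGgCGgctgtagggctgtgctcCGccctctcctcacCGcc
S100g: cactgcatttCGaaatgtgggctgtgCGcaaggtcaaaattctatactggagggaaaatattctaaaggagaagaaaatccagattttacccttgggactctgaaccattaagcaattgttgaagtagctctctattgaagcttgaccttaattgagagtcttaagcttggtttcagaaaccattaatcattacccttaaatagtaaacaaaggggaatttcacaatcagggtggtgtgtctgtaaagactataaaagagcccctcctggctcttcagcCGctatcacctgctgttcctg
The Pard6b window held 47 CG dinucleotides, the Hoxb8 window 13, the Angptl7 window 4 and the S100g window 3. On either strand, the letters TATAAA were found in the Hoxb8 and S100g windows, CCAAT in the Hoxb8 and Pard6b windows, GGGCGG in the Hoxb8 and Pard6b windows, and TGACTCA in none of the 4. Among the windows of all 27025 genes given, TATAAA was found in 14.2%, CCAAT in 37.9%, GGGCGG in 35.9% and TGACTCA in 5.17%. A window was given for only 34 of the 58 genes (58.6%), and a comparison of the whole set with other genes was therefore void.

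Several properties of the libraries stood beside these values. Reads on genes numbered 22936251 to 25648769 in a young library, 24965971 to 29559194 in an old one and 26018046 to 29155223 in a rejuvenated old one, so that the deepest library had 1.29 times the reads of the shallowest. The methods of the study name male donors for both ages. The summed normalized count of 10 Y-linked genes was 0 to 5.15 in the young libraries, against 5036 to 5604 in the old and 4903 to 5982 in the rejuvenated old libraries. Xist, the RNA that coats the inactive X chromosome of female cells, had group means of 34.4 (young), 6.11 (old) and 7.07 (rejuvenated old). The X-linked counterparts of the Y-linked genes were mixed. In young and old MSCs, Kdm6a averaged 913 and 482, Kdm5c 2983 and 3027, and Eif2s3x 680 and 806. The sex of the donors was not tested. The summed count of all 15 macrophage markers was 936 to 1054 in young, 18271 to 22669 in old and 18245 to 22023 in rejuvenated old MSCs, and 8 of the 15 were at or under 3.3 in every young library. Of the surface antigens used to define these cells, Cd44 (the hyaluronan receptor) and Ly6a (Sca-1) were present in every group, with Cd44 means of 2137, 2954 and 2399 in young, old and rejuvenated old MSCs. Ptprc (CD45, the pan-leukocyte antigen) averaged 0 in young and 179 in old MSCs, and Cd34 averaged 7006 in young and 23.1 in old MSCs. Age and any other difference between the donors of the young and old cultures cannot be told apart, and this holds for each gene at the floor in old MSCs, Gbp2b and Ifi202b among them. The part of the marker differences in the choice of the 58 genes was not tested. In bulk RNA, fewer cells of a type and less RNA per cell cannot be told apart.

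A rejuvenated old library also stood apart. Over the 58 genes together, rejuvenated old replicate 1 held 864 normalized counts (839 reads), 10.1 times the highest of the other 5 rejuvenated old libraries, which held 59.6 to 85.9. Replicate 1 supplied 70.1% of all the signal of the 58 genes in rejuvenated old MSCs. Cd34, which is outside the 58 genes, had 402 counts in replicate 1 and 24.2 to 41.9 in the other rejuvenated old libraries. Results are therefore given with and without it.

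In young MSCs the 58 genes covered a wide range, with means from 100.8 to 8914 normalized counts and a median of 212. The order was led by Angptl7, Ptgis, Msln and Tspan11. Angptl7, which encodes a secreted angiopoietin-like protein, had 8425, 8947 and 9594 counts in its lowest, median and highest young library. Ptgis, prostacyclin synthase, had 7385, 7808 and 8321 in the same order. Msln, the surface glycoprotein mesothelin, had 5391, 5411 and 6077, and Tspan11, a tetraspanin of the cell membrane, had 4706, 4932 and 5147. The ranges of these 4 genes did not overlap in the young libraries, and together they made up 63.5% of the young signal of the 58 genes. Per kilobase of exon, a scale on which genes can be compared, Angptl7 had 4133 counts, Ptgis 3060, Msln 1808, Rps4l 1499 and Tspan11 927, so that Rps4l (a ribosomal protein S4-like gene) stood above Tspan11. Rps4l belongs to a family with near-identical copies, and how the counting divided shared reads is not given in the sources used here.

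Most of the genes had far lower levels, since 7 genes had a young mean above 1000 and 28 had one under 200. Stc2, the secreted glycoprotein stanniocalcin 2, averaged 1129 ± 74.8 (SD, n = 6), and Nkx2-5, a homeodomain transcription factor of the heart and of the spleen anlage, averaged 1036 ± 42.3. Car6, the secreted carbonic anhydrase, averaged 751 ± 99.6 and the interferon-inducible GTPase Gbp2b 738 ± 172. The coefficient of variation between young libraries had a median of 10.7% over the 58 genes and ran from 3.17% to 28.5%. In 45 genes every young library held at least 100 counts, and the lowest young value of any of the 58 was 71.4. All 58 genes were higher in every young library than in any rejuvenated old library. The rule had chosen them for high young values, and the share of all genes with this pattern is not given here, so nothing is read from this count.

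**Figure D1:**
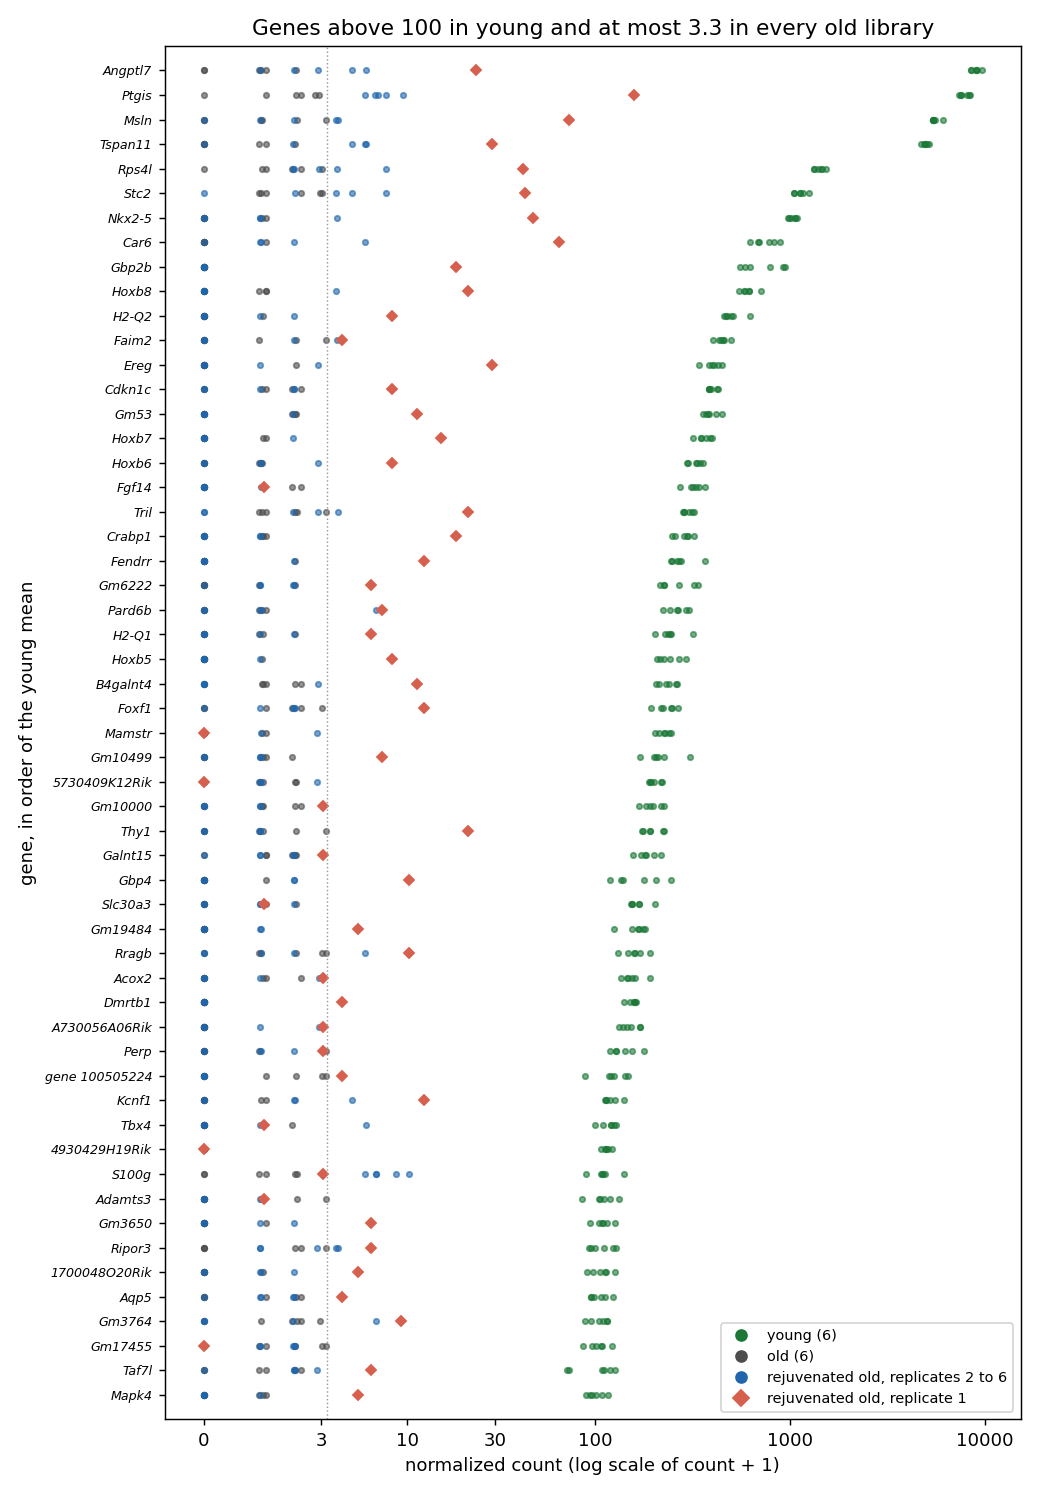
Normalized count of 55 of the 58 genes in the 18 libraries, on a log scale of count + 1, with genes in order of the young mean and a dotted line at 3.3. Green, grey and blue points are young, old and rejuvenated old libraries and red diamonds are rejuvenated old replicate 1, which was the highest rejuvenated old library in 48 of the genes shown.

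The old libraries held almost no reads of these genes. Over the 6 old libraries together a gene had at most 11 reads, with a median of 4, and 24 genes had 3 or fewer. No read at all was found for 5 genes, which were Gbp2b, Dmrtb1 (a germ-line zinc-finger factor) and the unnamed Gm19484, A730056A06Rik and 4930429H19Rik. In sum the 58 genes held 38.5 to 53.9 normalized counts in an old library (44.8 ± 5.04; SD, n = 6), against 41868 to 44611 in a young one. A count of 0 in a group allows up to 3 reads by counting error, so that absence from old MSCs means a level at or near this floor and not a silent gene.

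Co-culture left the 58 genes far below their young level. Averaged over all 6 rejuvenated old libraries, a gene reached a median of 0.774% of its young mean (range 0 to 6.14%), and 37 of the 58 reached less than 1%. Without replicate 1 the median was 0.273% (range 0 to 6.81%). In sum the 5 other libraries held 73.7 ± 9.63 counts of these genes (SD, n = 5), all of them above the highest old library. The old libraries had been chosen for low values of these genes, so this comparison is not independent of the rule. The highest rejuvenated old mean of any of the genes was 32.4 counts, for Ptgis, and 5 genes had a mean above 10. Replicate 1 alone reached a median of 2.83% of the young mean (quartiles 1.58% and 5.03%, highest 10.9%), whereas the medians of the other 5 libraries lay between 0 and 0.108%.

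**Figure D2:**
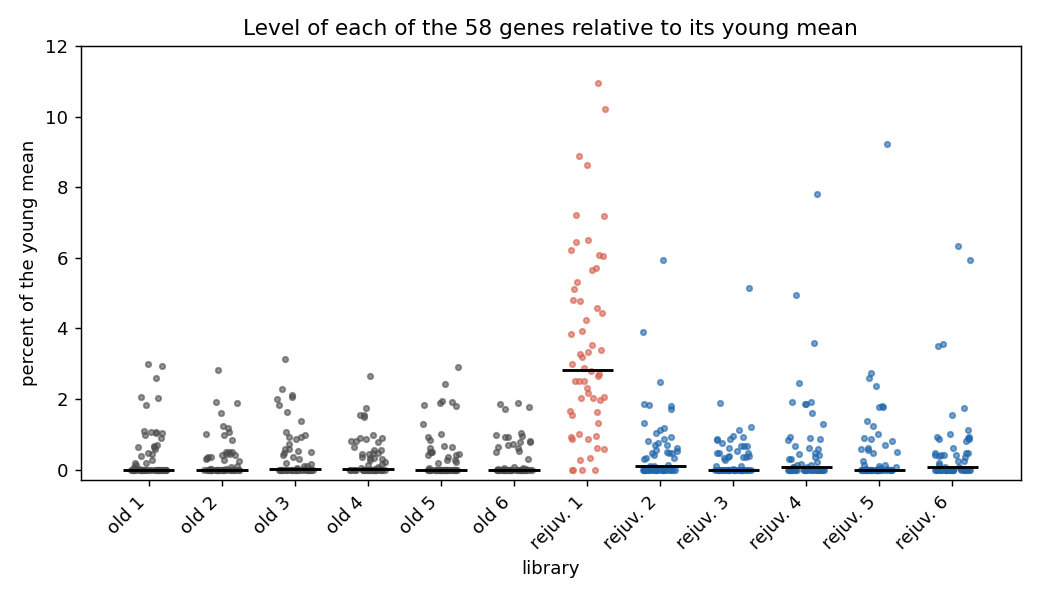
Level of each of the 58 genes as a percent of its young mean (vertical axis, linear) in the 6 old libraries (grey) and the 6 rejuvenated old libraries (red for replicate 1, blue for the others), with 1 point per gene and a black line at the median. The medians lie at 2.83% in replicate 1 and between 0 and 0.108% in the 5 others.

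Counted against the limit that had defined absence in old MSCs, 42 genes were above 3.3 in replicate 1 and 2 to 8 in each of the other libraries. In 14 genes all 6 rejuvenated old libraries stayed at or under 3.3, and in 40 genes the 5 libraries other than replicate 1 did. The genes above the limit in replicate 1 alone numbered 26. Ptgis was the 1 gene above 3.3 in all 6 libraries, and S100g joined it when replicate 1 was left out. The old libraries hold no gene above the limit because the rule required it.

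The comparison of rejuvenated old with old MSCs asks whether the co-culture moved these genes off the floor. By limma with Benjamini-Hochberg adjustment, 8 of the 58 genes (13.8%) rose from old to rejuvenated old MSCs and 0 fell. Among all 14353 genes tested, 21% were called higher and 20.6% lower, so the share of these genes called higher did not exceed that of all genes. All 58 passed the filter on low values through their young libraries. An unadjusted p under 0.05 was found for 13 genes, and edgeR and DESeq2 on the recovered reads also called 0 lower. The median difference over the 58 genes was 0.52 on the scale of log2(normalized count + 1), with 48 genes above 0 and 9 below, against a median of 0.01 over all genes tested. The old libraries had been chosen for low values, and this comparison is to that extent not independent of the rule. Old values at or under 3.3 left little room for a fall, so nothing is read from the absence of lower calls. For 2 genes the ranges of both groups were apart, with the rejuvenated old range on top, a pattern found in 10.4% of all genes tested.

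S100g, which encodes the calcium-binding protein calbindin-D9k, had the lowest adjusted p of the 8 genes called. For each of these 8 genes the rule had required low old values, and the gene passed the filter through its young libraries. The p-values and the gaps between old and rejuvenated old ranges given here and below are therefore not independent of the rule. Its old libraries held 0 to 2.01 counts (median 0.993). The rejuvenated old libraries held 3.09 in replicate 1 and 5.71 to 10.2 (median 6.61) in the 5 others, so that the groups did not overlap and replicate 1 was the lowest. The rise was 2.05 (SE 0.29) on the log2 scale, with an adjusted p of 7.9e-06 by limma, and 2.22 without replicate 1. Its young mean was 111 ± 16.3 (SD, n = 6), of which the 5 libraries reached 6.81% (exact Poisson 95% interval 4.87% to 9.28%, for counting error only). S100g lies inside Ctps2, a gene of the opposite strand that encodes a CTP synthase. The strand setting of the counting is not given in the sources used here, and Ctps2 had means of 3017, 2128 and 2229 counts in young, old and rejuvenated old MSCs, with a log2 difference of 0.07 between the last groups (adjusted p = 0.138, limma).

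Ptgis was also higher in every rejuvenated old library than in any old one. Prostacyclin synthase makes prostacyclin, a lipid mediator that widens vessels and inhibits platelets. The old libraries held 0 to 2.89 counts, replicate 1 held 159, and the 5 other rejuvenated old libraries held 5.66 to 9.44 (median 6.76). The rise was 2.38 (SE 0.54; adjusted p = 0.0011, limma), and 1.66 without replicate 1. These levels stand against a young mean of 7856 ± 420 (SD, n = 6), of which the 5 libraries reached 0.0916% and replicate 1 reached 2.02%.

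The other 6 genes that rose had overlapping groups. Angptl7 had 0 to 1.97 counts in old MSCs, 23.7 in replicate 1 and 0.931 to 5.79 in the other rejuvenated old libraries, a rise of 1.63 (SE 0.41; adjusted p = 0.0025, limma). Tspan11 had 0 to 1.92 counts in old MSCs, 28.8 in replicate 1 and 0 to 5.79 in the others, a rise of 1.82 (SE 0.50; adjusted p = 0.0053, limma). For Rps4l the old libraries held 0 to 3.01, replicate 1 held 42.2 and the others 1.86 to 7.55, a rise of 1.43 (SE 0.47; adjusted p = 0.0177, limma). In each of these genes replicate 1 was several times the next library, and at least 1 of the 5 others lay within the old range. Car6 rose by 1.86 (SE 0.63; adjusted p = 0.0206, limma), with 0 to 1.08 counts in old MSCs, 64.9 in replicate 1 and 0 to 5.71 in the others. Kcnf1, a silent-type subunit of voltage-gated potassium channels, rose by 1.22 (SE 0.47; adjusted p = 0.0408, limma), and Ripor3 by 0.99 (SE 0.39; adjusted p = 0.0458, limma). The last 2 had young means of 121 and 108 counts and rejuvenated old means of 3.48 and 3.08.

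Leaving out replicate 1 kept 6 of the 8 calls, those of S100g, Ptgis, Angptl7, Tspan11, Car6 and Rps4l, and added a lower call for gene 100505224. The differences of Angptl7, Tspan11, Car6 and Rps4l were then 1.19, 1.32, 1.06 and 0.87 on the log2 scale. Kcnf1 and Ripor3 lost their calls without it. The main fit and the fit without replicate 1 both took in the young libraries, so the spread of the young libraries entered these p-values. With a pseudocount of 10, and in a fit of old and rejuvenated old libraries only, the calls were those of Angptl7, Ptgis, S100g and Tspan11, so that Car6 and Rps4l lost theirs. Rps4l was also not called by edgeR without replicate 1. Since all of these levels are a few reads per library, the fitted differences depend on the value of 1 added before taking logs.

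Msln, next after Ptgis in the young order, did not pass the test. It held 0 to 3.23 counts in old MSCs, 73.1 in replicate 1 and 0 to 3.86 in the other rejuvenated old libraries (log2 difference 1.27, SE 0.64, adjusted p = 0.123, limma). Stc2 and Nkx2-5 had the same shape of values, with 43.2 and 47.4 counts in replicate 1 and at most 7.61 and 3.81 in the others, and adjusted p-values of 0.122 and 0.102 by limma. edgeR on the recovered reads called these 3 genes among 14 higher genes, 7 of them shared with limma.

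Replicate 1 did not hold the 58 genes in the proportions of young MSCs. Angptl7, first in the young order, stood at 0.266% of its young mean in that library (exact Poisson 95% interval 0.168% to 0.399%). Tspan11 stood at 0.584% (0.388% to 0.844%), Msln at 1.32% (1.03% to 1.67%) and Ptgis at 2.02% (1.71% to 2.36%). Higher shares were found in genes of lower level. Nkx2-5 stood at 4.57% (3.35% to 6.10%), Ereg at 7.17% (4.76% to 10.4%), Car6 at 8.64% (6.64% to 11.1%) and Thy1 at 10.9% (6.77% to 16.7%). The intervals of Angptl7, Msln, Nkx2-5 and Car6 did not overlap one another, so the spread of the shares was wider than the counting error of the reads. Itgbl1, a secreted integrin-beta-like protein outside the 58 genes that overlaps Fgf14 on the opposite strand, had a young mean of 10510 and stood at 0.176% in replicate 1. Mamstr, 5730409K12Rik, 4930429H19Rik and Gm17455 had no read there.

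**Figure D3:**
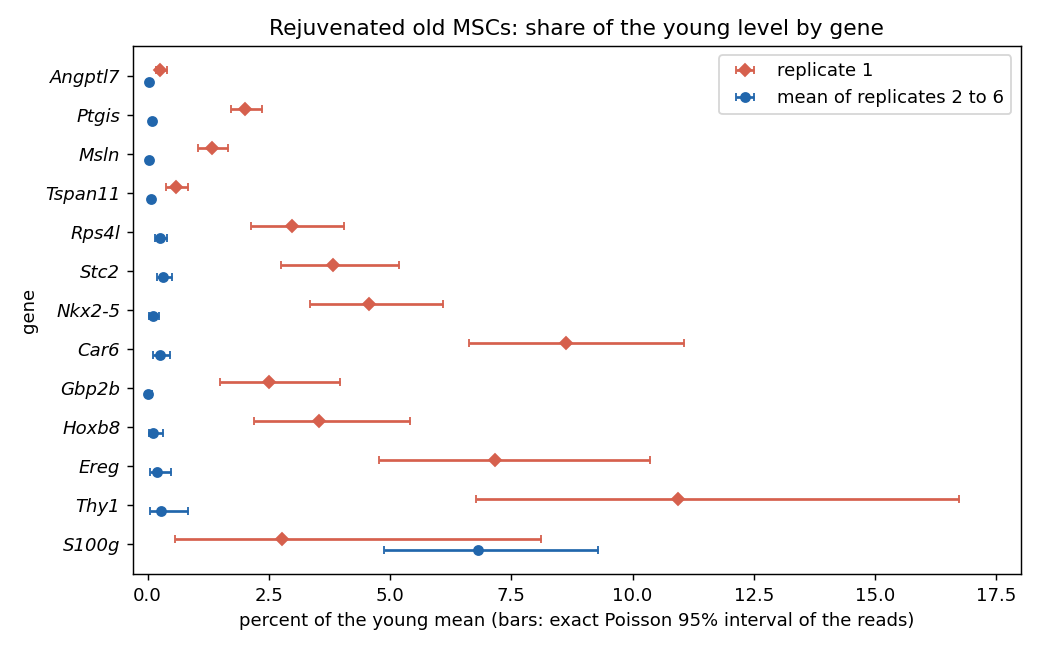
Share of the young mean (horizontal axis, percent) reached in rejuvenated old replicate 1 (red diamonds) and by the mean of replicates 2 to 6 (blue circles) for 13 of the genes, with exact Poisson 95% intervals of the reads as bars. The shares in replicate 1 run from 0.266% for Angptl7 to 10.9% for Thy1, and S100g is the 1 gene shown in which the blue point lies above the red one.

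Of the 58 genes, 10 encode transcription factors or cofactors, a division made after the values were seen. None of the 10 passed the test, where 21% of all genes tested were called higher and 20.6% lower, and with 10 genes nothing is read from this count. Their young means ran from 101.6 to 1036, and in 7 of them the 5 rejuvenated old libraries other than replicate 1 all stayed at or under 3.3. Hoxb8, Hoxb7, Hoxb6 and Hoxb5, which set position along the body axis, averaged 612 ± 55.6, 364 ± 29.1, 327 ± 24.5 and 243 ± 33.1 counts in young MSCs (SD, n = 6). In old MSCs their highest library held 1.08, 1.08, 0.985 and 0.985 counts. In replicate 1 they held 21.6, 15.4, 8.24 and 8.24, and in the other rejuvenated old libraries at most 3.77, 1.86, 2.83 and 0.943. Foxf1, a forkhead factor of lung and gut mesenchyme, averaged 233 ± 25.3 in young MSCs and held 12.4 counts in replicate 1 and at most 1.93 in the others. Its divergent long non-coding neighbour Fendrr averaged 279 ± 44.3 and also held 12.4 counts in replicate 1. Tbx4, a T-box factor of the hindlimb and lung, averaged 117 ± 10.6, and its highest rejuvenated old value, 5.79, was in replicate 4. Taf7l, a germ-cell variant of a TFIID subunit, and Mamstr, a cofactor of MEF2 factors, averaged 101.6 and 226.

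The Hoxb cluster was the densest run of the 58 genes. Gm53, Hoxb8, Hoxb7, Hoxb6 and Hoxb5 lay within 54.5 kb at chr11:96251660-96306121 (GRCm38.p6), and of the 2 other genes listed in this interval 1 was also at or under 3.3 in every old library. The remaining gene was Hoxb9, with a young mean of 3070 ± 104 and an old range of 1.00 to 5.45, just over the limit. It held 146 counts in replicate 1 and 0 to 5.66 in the other rejuvenated old libraries (log2 difference 0.94, SE 0.72, adjusted p = 0.322, limma). Hoxb3 averaged 684 in young and 3.93 in old MSCs, and Hoxb2 228 and 1.26, whereas Hoxb4 kept 40.5 counts in old MSCs against 279 in young. Genes of other clusters had the opposite order. Hoxa11 averaged 0.550 counts in young and 464 in old MSCs, and Hoxd9 0 and 208. Among the 3 HOX genes with the highest mean over all libraries were Hoxa10 with 2546, 2680 and 2809 counts and Hoxc10 with 4250, 4064 and 3665 in young, old and rejuvenated old MSCs, and Hoxc10 was among the 3 HOX genes that fell from old to rejuvenated old MSCs. Others were expressed in all groups at unequal levels, such as Hoxc9 with 2025, 1039 and 1081 counts and Hoxc13 with 166, 1003 and 917.

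**Figure D4:**
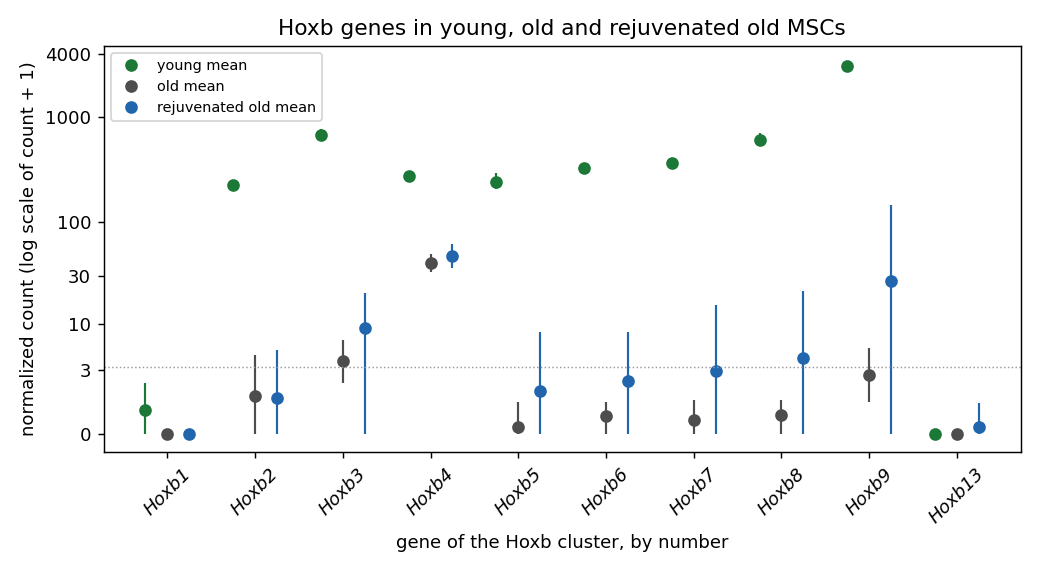
Normalized counts of the Hoxb genes (log scale of count + 1) in young (green), old (grey) and rejuvenated old (blue) MSCs, with points at the mean and vertical lines from the lowest to the highest of 6 libraries, and a dotted line at 3.3. Hoxb5 to Hoxb9 lie above 200 in young MSCs. In old MSCs Hoxb5 to Hoxb8 lie below the line, the range of Hoxb9 (1.00 to 5.45) crosses it, and Hoxb4 keeps a mean of 40.5.

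Over the list of 39 HOX genes, 31 were tested and 3 rose and 3 fell from old to rejuvenated old MSCs, with a median difference of 0.07. For this and the lists that follow, the shares over all genes tested were 21% higher and 20.6% lower with a median of 0.01, and no list was tested against other genes. None of the 4 HOX genes among the 58 was called. The list of 96 mesenchymal patterning factors held Tbx4, Foxf1 and Nkx2-5. Of its 62 tested genes 10 were higher and 24 lower, with a median of -0.12. Prrx1, a limb-bud mesenchyme factor, had 13533, 21926 and 22098 counts in young, old and rejuvenated old MSCs, Foxc1 had 2069, 6463 and 7390, and Tbx15 had 3500, 4792 and 4412. Among these 3 genes of high level, Foxc1 rose and Tbx15 fell between old and rejuvenated old MSCs (adjusted p of 0.000396 and 0.0010, limma).

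The secreted factors and proteases among the 58 were Angptl7, Stc2, Car6, Ereg and Adamts3. Ereg, epiregulin, a ligand of the EGF receptor, averaged 402 ± 36.5 in young MSCs and held 28.8 counts in replicate 1 and at most 2.83 in the other rejuvenated old libraries. Adamts3, a protease that trims procollagen, averaged 110 ± 15.9 and held at most 1.03 counts in any rejuvenated old library. On the list of 84 growth factors Ereg was the 1 member of the 58, and 28 of the 65 tested genes were higher and 12 lower, with a median of 0.13. Vegfa, the main angiogenic factor, had 7552, 8422 and 14019 counts, Csf1 had 7625, 42908 and 46278, and Rspo2 had 459, 20483 and 28756 in young, old and rejuvenated old MSCs, and all of these rose between the last groups. On the list of 39 metalloproteinases and their inhibitors, which holds Adamts3, 8 of 28 tested genes were higher and 11 lower, with a median of -0.03. The 3 with the highest mean over all 18 libraries, Timp2, Mmp14 and Mmp2, fell by 0.63, 0.39 and 0.24 on the log2 scale. Timp3, which had more counts than Timp2 in rejuvenated old MSCs (38561 against 32704), rose by 0.56.

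Membrane proteins and channels gave 10 of the genes, with young means from 105 to 5538. Thy1 (CD90), a GPI-anchored antigen widely used to define stromal cells, averaged 198 ± 23.1 in young MSCs and held 0 to 3.23 counts in old MSCs. It held 21.6 counts in replicate 1 and at most 0.951 in the other rejuvenated old libraries (log2 difference 0.30, adjusted p = 0.699, limma). The other stromal surface genes differed in level between the groups, with Nt5e (CD73) at 295, 15.9 and 17.1 counts and Lepr at 36.2, 378 and 308 in young, old and rejuvenated old MSCs. Of the 11 on that list 3 rose and 5 fell from old to rejuvenated old MSCs, and the most abundant by the mean over all libraries were Ly6a at 25100, 6135 and 12900 counts, Pdgfrb at 10773, 17355 and 16170, and the chemokine Cxcl12 at 9227, 197374 and 238458 in young, old and rejuvenated old MSCs. Faim2, an inhibitor of Fas-induced cell death, averaged 449 ± 31.1 in young MSCs, with 4.12 counts in replicate 1 and at most 3.81 in the others. The water channel Aqp5, its neighbour on chromosome 15, averaged 105 ± 11.3. The vesicular zinc transporter Slc30a3 and the desmosomal protein gene Perp averaged 167 and 142.

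The immune genes were Gbp2b, Gbp4, H2-Q1, H2-Q2 and Tril. Gbp2b had no read in any old library or in rejuvenated old replicates 2 to 6, and 18.5 counts in replicate 1. H2-Q2 and H2-Q1, class I genes of the major histocompatibility complex, averaged 508 ± 61.2 and 246 ± 38.7 in young MSCs and held 8.24 and 6.18 counts in replicate 1 and at most 1.90 and 1.89 in the others. Both belong to families of closely similar genes, as do the guanylate-binding proteins, and reads shared between copies make their values uncertain. Tril, which takes part in Toll-like receptor 4 signalling, averaged 300 ± 17.0 in young MSCs and held 21.6 counts in replicate 1 and at most 3.86 in the others. No gene of this group was called, and their shares in replicate 1 ran from 1.62% to 7.21%.

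A further 13 genes encode enzymes, signalling and other intracellular proteins, of which Ptgis, S100g and Ripor3 rose. Cdkn1c, which encodes the cell-cycle inhibitor p57 and is an imprinted gene, averaged 400 ± 20.0 in young MSCs and held at most 2.15 counts in an old library. It held 8.24 counts in replicate 1 and at most 1.90 in the other rejuvenated old libraries. It was the 1 gene of the 58 on the list of 34 imprinted genes, of which 24 were tested, 6 were higher and 3 lower, with a median of 0.10. Gnas had 43241, 47136 and 54140 counts, Grb10 5089, 6005 and 5978, and Igf2r 6393, 5039 and 3213 in young, old and rejuvenated old MSCs. Cdkn1c was also the 1 gene of the 58 among 16 genes of tumour suppressor loci. Of the 15 tested, 4 were higher and 4 lower, and Cdkn2a, Cdkn1a and Mtap had 17851, 2381 and 4014 counts in young and 6040, 17769 and 4161 in old MSCs, with 5855, 19087 and 4098 in rejuvenated old MSCs. Crabp1, a cellular retinoic acid binding protein, averaged 286 ± 28.1 in young MSCs, with 18.5 counts in replicate 1 and at most 0.951 in the others. Pard6b, a cell-polarity adaptor, averaged 266 ± 30.4, Acox2, a peroxisomal oxidase of bile acid synthesis, 156 ± 19.1, and Rragb, a Rag GTPase of the lysosomal mTORC1 pathway, 160 ± 20.5. Fgf14, an intracellular member of the FGF family, averaged 323 ± 31.9 and held 1.03 counts in replicate 1 and at most 0.966 in the others.

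The 57 genes with a known position lay on 19 chromosomes, with 7 on chromosome 11, 6 on chromosome 17 and 5 on chromosome 7. On chromosome 17 they were 1.06% of the genes with a young mean of at least 100, and on chromosome X 1.14%, against 0.530% over all. There were 17 genes in 6 groups with neighbours less than 1 Mb apart. Besides the Hoxb group these were Faim2 with Aqp5, H2-Q1 with H2-Q2 and Gm10499, Fendrr with Foxf1, the overlapping A730056A06Rik and 4930429H19Rik, and Ptgis with Ripor3 and Pard6b at chr2:167203194-168101203. In the interval of Ptgis, Ripor3 and Pard6b, all 10 other genes listed had a mean of at least 10 over all libraries and all 10 were above 3.3 in an old library, so the low values did not cover the interval. No test of clustering was made.

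Some of the genes overlap others on the genome, and without the strand setting of the counting their reads cannot be assigned with certainty. Angptl7 lies in Mtor on the opposite strand. Mtor had means of 2221, 1538 and 1534 counts in young, old and rejuvenated old MSCs, and the part of its reads in the values of Angptl7 was not tested. Rps4l overlaps Tmtc1 (154, 48.4 and 75.8 counts), and A730056A06Rik overlaps Rgma (4154, 272 and 321 counts). Tmtc1 and Rgma themselves rose from old to rejuvenated old MSCs, by 0.61 and 0.23 on the log2 scale (adjusted p of 0.000437 and 0.00577, limma). The part of their reads in the values of Rps4l and A730056A06Rik was not tested.

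The limits of the rule cut through a continuum. Taf7l and Mapk4 (an atypical MAP kinase) lay just inside, with young means of 101.6 and 100.8, and Flrt1, Glt1d1 and Cdh17 just outside with 81.5, 80.9 and 77.4. A highest old library between 3.3 and 10 was found for 67 further genes with a young mean of at least 100. The highest of these in young MSCs were Ifi202b, an interferon-inducible DNA sensor, with 6649 counts, Hoxb9 with 3070 and Clec3b (tetranectin) with 1861. Ifi202b had at most 3.85 counts in an old library, 165 in its highest rejuvenated old library and 0.931 in its lowest. Clec3b had 1.08 to 6.73 counts in old MSCs and 3.86 to 18.9 in rejuvenated old MSCs.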

How the data were processed

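Stranded mRNA libraries of 18 MSC cultures (6 young, 6 old, 6 rejuvenated old) were sequenced. Per the labels and the methods of the study, the authors used HISAT2 for alignment to mm10, StringTie and featureCounts for quantification, and DESeq2 for normalization; versions and strand setting are not given in the sources used here. The deposited values are a signal, reads divided by 1 size factor per library. Within a library all values were multiples of 1 step, and whole reads were recovered for 100% of values (tolerance 0.1 read). Genes are listed by Entrez number, and 25275 of 27179 were found in RefSeq (GRCm38.p6).

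With limma 3.58.1 in R 4.3.3, log2(value + 1) was fitted for 14353 genes (mean over all 18 libraries of 10 or more), with a trended prior and Benjamini-Hochberg adjustment over all genes (adjusted p under 0.05). All 18 libraries were in the same fit and shared the spread of each gene. edgeR 4.0.16 (quasi-likelihood) and DESeq2 1.42.0 were run on the recovered reads. The tests were tried on simulated counts with known changes. Python 3.11.15 with pandas 2.3.3, scipy 1.17.1 and matplotlib 3.10.9 was used for the rest. Intervals are exact Poisson 95% intervals of the reads of the gene, scaled by its young mean and covering counting error only.

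The members and the lists of genes were chosen with earlier results of these data known. Genes were named by rule: the 15 members with the highest young mean, the 10 with the highest rejuvenated old mean, members on a list (with up to 3 other genes of that list by mean level), those nearest the limits, and those above 3.3 in all rejuvenated old libraries. Predicted genes were passed over. Other genes, and the division of members by role, were chosen after their values were seen. Protein sequences were not used here, and the values of 3 members are not reported by name. Alternatives covered the limits of the rule, the scaling, the pseudocount, the filter, the tests, the replicate number as a block, and leaving out each library.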

Additional observations from a re-analysis of the deposited data

Results flagged for a closer look

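A Dixon test at the 95% level was applied in groups of 6 libraries. It picks out about 1 in 20 groups by chance where values have a normal spread. This rate does not hold for genes with a few reads per library, as many of the 58 are. The test set rejuvenated old replicate 1 apart in the summed count of the 58 genes (864). It did so too in the number of genes above 3.3 (42) and in the median percent of the young mean (2.83%). Of the 58 genes, 38 had a library apart in the rejuvenated old group, and in 35 it was replicate 1 as the highest. The share of all genes with a library apart in this group is not given here. Nothing particular to the 58 genes is therefore read from these counts. Among the genes named by rule, the values of replicate 1 apart from the others were 159 for Ptgis, 73.1 for Msln, 64.9 for Car6, 47.4 for Nkx2-5, 43.2 for Stc2, 42.2 for Rps4l, 28.8 for Tspan11 and for Ereg, 23.7 for Angptl7, 21.6 for Hoxb8 and for Thy1, 18.5 for Gbp2b, 15.4 for Hoxb7, 12.4 for Foxf1, 8.24 for H2-Q2, Cdkn1c, Hoxb6 and Hoxb5, and 5.15 for Mapk4. Tbx4 had replicate 4 apart instead, with 5.79 counts. In young MSCs 5 of the 58 genes had a library apart, among them Msln in replicate 2 (6077) and H2-Q2 in replicate 4 (626). The cause of the level of replicate 1 was not tested.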

How the results depend on the processing

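The number of genes found by the rule depended on its limits: 5 with every old library at 0, 125 with old libraries up to 10, 88 with a young mean of at least 50, 30 with at least 200 and 45 with every young library at 100 or more. It stayed at 58 with a limit of 3 whole reads or with 2 other scalings. The genes at or under 3.3 in every rejuvenated old library numbered 2 of the 5 and 3 of the 30, and 14 to 40 over leaving out each rejuvenated old library, the 40 without replicate 1. Those above 3.3 in all of them numbered 0 of the 5, and 1 to 2 on leaving out a library. The median percent of the young mean ran from 0.273% without replicate 1 to 0.901% without another library.

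The 8 genes called higher became 4 with a pseudocount of 10 (Car6, Rps4l, Kcnf1 and Ripor3 lost), 5 with a mean of at least 50 (41 of the 58 tested), 4 in a fit of old and rejuvenated old libraries only (the same 4 lost), 4 at an adjusted p under 0.01, 14 by edgeR (7 shared) and 13 by DESeq2 (5 shared; 6 without an adjusted p). Leaving out each of the 18 libraries gave 6 to 12, the 12 without rejuvenated old replicate 3. edgeR without rejuvenated old replicate 1, an alternative chosen after seeing the data, called 5 higher and 1 lower. DESeq2 gave Ptgis and Rps4l no adjusted p and did not call Ripor3, and Ripor3 also lost its call by limma without any 1 of the young libraries. Replicate numbers did not pair the old and rejuvenated old libraries (correlations of same-numbered libraries -0.152 to 0.0736, 0 of 6 over 0.1, 1 of 6 closest to its own number), and with the replicate number as a block 8 genes were called, all of them shared.

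Differences that changed sign were all of genes not called. Over leaving out each library the log2 difference ran from -0.056 to 0.84 for Hoxb8, from -0.0052 to 0.52 for Faim2, from -0.060 to 0.58 for Cdkn1c, from -0.039 to 0.77 for Hoxb7, from -0.35 to 0.55 for Thy1 and from -0.31 to 0.22 for Mapk4, each lowest without rejuvenated old replicate 1. By edgeR without it they were -0.070 for Cdkn1c, -0.0081 for Foxf1, -0.90 for Thy1 and -0.99 for Mapk4. Adamts3 ran from -0.24 to 0.17, and was at 0.17 without old replicate 1 and 0.08 without old replicate 5, and Mapk4 at -0.0015 without old replicate 1, 2 or 6. The cause was not tested. Levels of a few reads per library limit all of these comparisons.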
